A study of Mus musculus with 9 samples.

Results

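The 10 genes described here are inflammatory genes around the transcription factor NF-kappaB. They are Ptgs2, the cytokine genes Il6, Il1a, Il1b and Tnf, the pathway inhibitors Nfkbia and Tnfaip3, the NF-kappaB subunits Rela and Nfkb1, and Socs3. They were taken by gene name from a table of 34745 genes. All 10 had a row, and all 10 passed the filter on low counts that left 14506 genes for testing.

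RNA was sequenced from 9 tumours that mouse LLC cells (the Lewis lung carcinoma line) had formed under the skin of the right flank of male C57BL/6 mice whose genotype is labelled WT. In 3 groups of 3 tumours each, the mice had received an antibody against PDL1 (10 mg/kg) with BTZ (bortezomib, 0.5 mg/kg), the antibody against PDL1 alone (10 mg/kg), or an isotype control antibody (10 mg/kg). All agents were given into the peritoneum, after randomisation at a tumour volume near 100 mm3, and the titles of the isotype libraries say blank. No group received BTZ alone, so BTZ by itself was not analysed here. The labels call the cells lung adenocarcinoma. The lung epithelial genes Nkx2-1, Sftpc and Sftpb had 0 counts in all 9 tumours (a count of 0 allows up to 3 counts per library), and Epcam had at most 5 counts. Napsa, another gene of lung epithelium, had 84 to 179 counts (1.70 to 3.84 FPKM), the epithelial cadherin gene Cdh1 29 to 174 counts and the keratin gene Krt8 70 to 508 counts. The keratin gene Krt18 stood at 40.5 to 81.8 FPKM.

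NF-kappaB is a family of dimeric transcription factors, of which the pair of RelA (from Rela) and p50 (from Nfkb1) is the best known. In resting cells the inhibitor IκBα, the product of Nfkbia, holds the dimer in the cytoplasm. Inflammatory signals lead to phosphorylation and ubiquitination of IκBα, the proteasome degrades it, and the freed dimer enters the nucleus. The proteasome also trims the p105 precursor made from Nfkb1 to p50. Bortezomib inhibits the proteasome, so both steps are textbook points at which the drug meets this pathway. Among the target genes are those of the cytokines, of the prostaglandin enzyme cyclooxygenase-2 (Ptgs2), and of the pathway's own brakes, IκBα and the ubiquitin-editing enzyme A20 (Tnfaip3). IL-6, one of the cytokines, signals through STAT3, and SOCS3 dampens that signal.

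Values below are CPM (a gene's share of the counts of its library, with TMM scaling) unless FPKM, which is also scaled by gene length, is named. Values of 1 group are listed in the order of replicates 1, 2 and 3. Fold changes are log2 values with the standard error (SE) of the edgeR quasi-likelihood F test, and called means an adjusted p under 0.05 (Benjamini-Hochberg over all 14506 genes). Libraries held between 18.52 M and 21.51 M counts, where M stands for mega. The depth leaves Il1a with 5 to 32 counts per tumour and Il6 with 7 to 61, while Nfkb1 had 35557 counts over the 9 tumours. In BTZ+anti-PDL1 tumour 1, the 5 counts of Il1a have an exact Poisson 95% interval of 1.62 to 11.7 counts, which covers counting error only. The tumours also differed in tissue content. The summed level of 8 skeletal muscle markers (Acta1, Ckm, Myh4 and others) was 678, 17.2 and 5.26 CPM in BTZ+anti-PDL1 tumours, 888, 98.3 and 179 CPM in anti-PDL1 tumours, and 5.88, 7.37 and 2498 CPM in isotype tumours. Results were therefore also computed without the 3 muscle-rich tumours (replicate 1 of both treated groups and isotype replicate 3). These are bulk tumours, so fewer cells of a type and less RNA per cell cannot be told apart.

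Promoter stretches are shown for Ptgs2 and for the 3 members whose window holds a match to an NF-kappaB motif, and stretches of 3′ untranslated region for Ptgs2 and 3 of the cytokine genes, as examples of letters through which such genes are known to be controlled. Promoter windows (250 bases before to 50 after the start site, RefSeq, GRCm38.p6, the assembly also called mm10) were listed for 9 of the 10 members, Nfkb1 being the other. The capitals in the Ptgs2 stretch are a cyclic AMP response half-site, TGACG, read here on the opposite strand, and the capitals in the next 3 are matches to the NF-kappaB consensus.
Ptgs2, chr1:150100031-150100060, + strand: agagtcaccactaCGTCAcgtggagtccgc
Il6, chr5:30013060-30013089, + strand: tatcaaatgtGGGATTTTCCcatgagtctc
Nfkbia, chr12:55492657-55492686, − strand: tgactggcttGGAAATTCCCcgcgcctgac
Tnfaip3, chr10:19015403-19015432, − strand: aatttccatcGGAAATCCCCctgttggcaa
The match began 44 bases before the listed start in Il6, 29 before in Nfkbia, 12 before in Tnfaip3 and 13 after it in Ptgs2. The coordinate of the listed start minus that of the deposited gene start was −247 in Tnfaip3, −681 in Socs3 and 58 in Rela. These listed starts lie inside the deposited gene. On both strands, the NF-kappaB consensus occurred in the windows of 3 members (Il6, Nfkbia, Tnfaip3) and in 8.46% of 32851 mouse windows. The AP-1 motif TGANTCA occurred in 3 members (Il6, Il1a, Tnfaip3) and in 7.81% of windows. The half-site TGACG occurred in 3 members (Ptgs2, Il6, Tnfaip3) and in 20.8% of windows, and the STAT motif TTCNNNGAA in Socs3 and in 8.30% of windows. A match is a description of the letters, and a window without one says nothing of the factor.

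AU-rich elements are runs of the pentamer ATTTA in the 3′ untranslated region, and proteins such as tristetraprolin (Zfp36) bind them and speed decay of the message. Capitals mark the pentamers in the 30-base stretch richest in them, read from the mouse GENCODE M21 annotation (GRCm38).
Ptgs2: ccatATTTATTTATTTAtgtgaagaATTTA
Il1b: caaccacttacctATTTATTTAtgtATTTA
Tnf: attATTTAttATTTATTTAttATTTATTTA
Il6: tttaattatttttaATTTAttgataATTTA
The pentamer occurred 14 times in the 2445 bases of the Ptgs2 3′ untranslated region, 8 times in the 764 bases of Tnf, 6 times in the 427 bases of Il6 and 4 times in the 459 bases of Il1b. The longer element TATTTAT was present in 8 of the 10 members and in 27.7% of 13104 tested genes with an annotated 3′ untranslated region. The 2 without it were Rela and Nfkb1, the subunit genes. Rela had 0 pentamers in 714 bases and Nfkb1 had 4 in 700.

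Levels differed widely between the members. On the length-scaled FPKM measure, Nfkbia stood highest over the 9 tumours (82.2 ± 18.0, SD, n = 9), followed by Rela (41.9 ± 2.19), Ptgs2 (37.8 ± 17.9), Socs3 (29.6 ± 4.72), Il1b (18.1 ± 7.25) and Nfkb1 (12.3 ± 0.92). Tnfaip3 (1.86 ± 0.502), Tnf (1.25 ± 0.51), Il1a (0.447 ± 0.251) and Il6 (0.374 ± 0.25) followed at low levels. Neighbours in this order had overlapping ranges, except that every tumour's Nfkbia value lay above all Rela values, and every Nfkb1 value above all Tnfaip3 values. Between the lowest and the highest tumour the CPM of Il6 differed 8.07-fold, of Il1a 6.68-fold, of Ptgs2 4.45-fold and of Tnf 4.08-fold. Rela (1.20-fold) and Nfkb1 (1.26-fold) hardly varied between tumours.

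**Figure D1:**
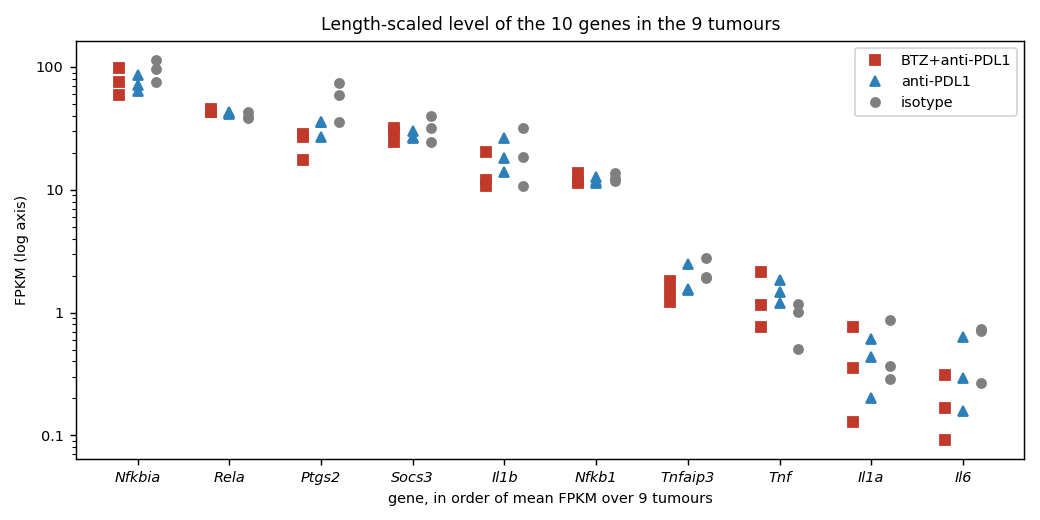
FPKM (log axis) of the 10 genes in each of the 9 tumours, ordered by the mean over all tumours, with 1 symbol per tumour and the BTZ+anti-PDL1, anti-PDL1 and isotype groups side by side. Nfkbia tops the order at a mean of 82.2 FPKM, and the 4 genes from Tnfaip3 to Il6 lie between 0.0925 and 2.78 FPKM.

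No member was called by edgeR, or by limma on FPKM, in any of the 3 comparisons, and DESeq2 called Ptgs2 in BTZ+anti-PDL1 against isotype only. Of all 14506 genes, edgeR called 0.00689% in BTZ+anti-PDL1 against isotype tumours and 0.0138% in each of the other comparisons, so very few genes of any kind passed. In BTZ+anti-PDL1 against isotype tumours, 8 of the 10 members had a log2 fold change below 0 (50.3% of all genes tested), with a median of −0.31 against −0.0011 over all genes. The unadjusted p was under 0.05 for Ptgs2, Il6 and Tnfaip3, all lower in BTZ+anti-PDL1 tumours, where 4.18% of all genes were lower at that p. For Ptgs2 and Tnfaip3 the groups did not overlap, which held in this direction for 6.03% of all genes and in either direction for 13.0%. In anti-PDL1 against isotype tumours, 8 members were again below 0 (51.0% of all genes), with a median of −0.24 against −0.0034 over all genes. Ptgs2 was the only member with an unadjusted p under 0.05 there (3.34% of all genes were lower at that p), and Tnf the only one whose groups did not overlap (6.08% of all genes in the higher direction, 12.7% in either). With BTZ+anti-PDL1 against anti-PDL1, 6 members were below 0 (49.2% of all genes) with a median of −0.099. No member there had an unadjusted p under 0.05 (5.82% of all genes) or groups without overlap (14.3% of all genes). The 3 comparisons share their samples pairwise and are not independent of each other. The members were chosen with earlier results of these data known. Their shares and medians beside those of all genes are therefore a description and not a test.

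The size of the median of the members depended on single tumours. With 1 tumour left out it ran from −0.50 to −0.099 in BTZ+anti-PDL1 against isotype and from −0.37 to −0.11 in anti-PDL1 against isotype. Without isotype replicate 3 it was −0.099 in BTZ+anti-PDL1 against isotype, without BTZ+anti-PDL1 replicate 2 it was −0.18, and without BTZ+anti-PDL1 replicate 3 it was −0.50. Without all 3 muscle-rich tumours it was −0.11 in BTZ+anti-PDL1 against isotype, where 6 of the 10 members were then below 0, and −0.073 in anti-PDL1 against isotype, again with 6 below 0. In anti-PDL1 against isotype it was −0.11 without isotype tumour 3, −0.11 without anti-PDL1 tumour 1 and −0.37 without isotype tumour 1. The median with BTZ+anti-PDL1 against anti-PDL1 ran from −0.27 without anti-PDL1 replicate 1 to 0.0027 without BTZ+anti-PDL1 replicate 1, and it was also above 0 (0.00032) without anti-PDL1 replicate 3.

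**Figure D2:**
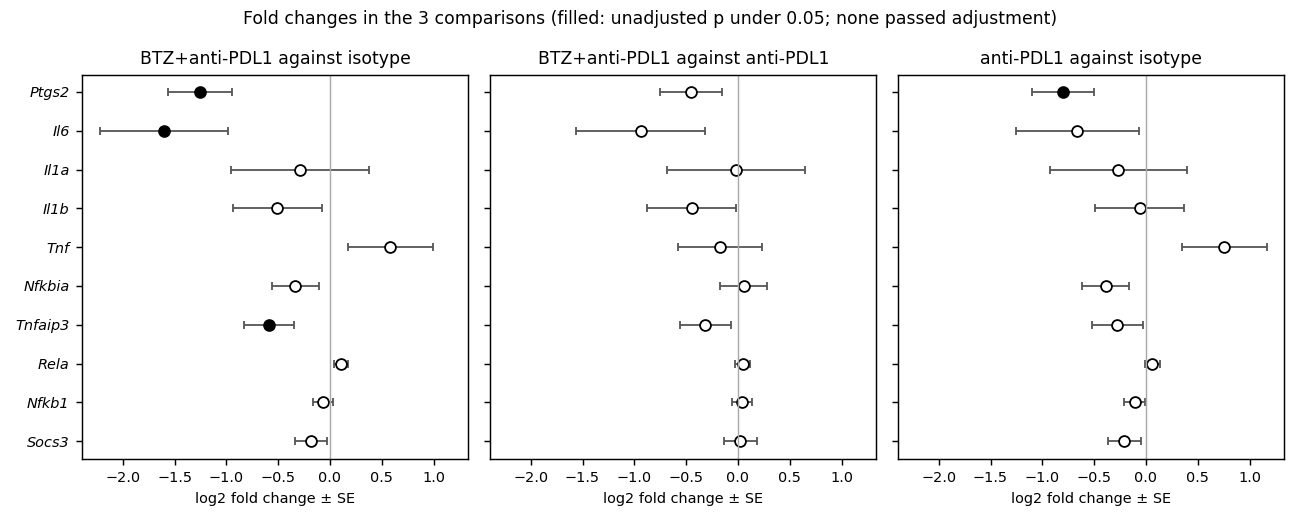
Log2 fold change ± SE (edgeR, n = 3 tumours per group) of each member in the 3 comparisons, with filled points at an unadjusted p under 0.05. Ptgs2 lies at −1.25 in BTZ+anti-PDL1 against isotype and at −0.80 in anti-PDL1 against isotype, Tnf lies to the right of 0 in both, and Rela and Nfkb1 lie close to 0 with short error bars.

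Ptgs2 encodes cyclooxygenase-2, the inducible enzyme that commits arachidonic acid to prostaglandin synthesis, and lies at chr1:150100031-150108227 on the + strand (mm10). It had 131, 81.4 and 125 CPM in BTZ+anti-PDL1 tumours, 127, 168 and 168 CPM in anti-PDL1 tumours, and 280, 362 and 164 CPM in isotype tumours. All 3 BTZ+anti-PDL1 tumours were below all 3 isotype tumours, and isotype tumour 3 lay within the range of the anti-PDL1 tumours. The group means were 113 ± 27.3 CPM with BTZ+anti-PDL1, 154 ± 23.3 CPM with anti-PDL1 and 269 ± 99.9 CPM with isotype (SD, n = 3 each).

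Ptgs2 in BTZ+anti-PDL1 tumours was 2.38-fold lower than in isotype tumours by edgeR (log2 fold change −1.25 ± 0.305, edgeR adjusted p = 0.431, rank 125 of 14506 by p). This did not pass the test. DESeq2, run on the same counts, gave −1.26 ± 0.258 with an adjusted p of 0.000665 and called Ptgs2 as 1 of 111 genes (0.768% of the 14448 genes with an adjusted p). The DESeq2 call ended without isotype replicate 1 (−1.22, adjusted p = 0.0865) and held in each of the other 8 fits with 1 tumour left out. The edgeR fold change ranged from −1.51 without isotype replicate 3 to −0.97 without isotype replicate 2. Without the 3 muscle-rich tumours it was −1.64, with an adjusted p of 0.221 by edgeR and 3.29e-10 by DESeq2. In anti-PDL1 against isotype tumours the log2 fold change was −0.80 ± 0.302 (edgeR adjusted p = 0.763), and in BTZ+anti-PDL1 against anti-PDL1 tumours it was −0.45 ± 0.302 (edgeR adjusted p = 0.886).

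Cell type markers also differed between these tumours. Isotype tumour 2, which had the most Ptgs2, had the lowest summed level of 10 macrophage and monocyte markers (1494, 1457 and 1329 CPM in BTZ+anti-PDL1, 1535, 1632 and 1475 CPM in anti-PDL1, and 1180.4, 823 and 1576 CPM in isotype tumours). It also had the lowest sum of 8 T cell markers (23.3 to 37.0 CPM in BTZ+anti-PDL1, 24.6 to 29.7 CPM in anti-PDL1, and 20.4, 5.89 and 28.2 CPM in isotype tumours), with Cd3g at 0. The sum of 8 endothelial markers was 156 to 194 CPM in BTZ+anti-PDL1 tumours and 190.0 to 300.2 CPM in isotype tumours. All 8 were lower with BTZ+anti-PDL1 (median log2 fold change −0.59), where 50.3% of all genes were below 0. By edgeR, DESeq2 or limma 0 were called, and 6 had an unadjusted edgeR p under 0.05 (4.18% of all genes were lower at that p). All 6 red blood cell markers were lower as well (median −1.06, with 0 at an unadjusted p under 0.05 by edgeR and 1 by DESeq2), with sums of 29.0 to 196 CPM in BTZ+anti-PDL1 tumours and 136 to 268 CPM in isotype tumours. In anti-PDL1 against isotype tumours the 6 red blood cell markers were lower too (median −1.73, with 51.0% of all genes below 0), with sums of 45.3 to 88.8 CPM in anti-PDL1 tumours. None of the 6 overlapped between these groups (12.7% of all genes in either direction). By edgeR 2 had an unadjusted p under 0.05 (3.34% of all genes were lower at that p) and by DESeq2 5, and 0 were called by edgeR, DESeq2 or limma. Over the 9 tumours, log2 Ptgs2 had a Pearson r of −0.74 with the macrophage and monocyte sum (Spearman rho −0.27). That r was 0.46 without isotype tumours 1 and 2. With the T cell sum r was −0.72 (rho −0.5), and −0.32 without isotype tumour 2 and BTZ+anti-PDL1 tumour 1. With the endothelial sum r was 0.69 and with the red blood cell sum 0.62. None of these relations passed adjustment. The part of these cell types in the Ptgs2 difference was not tested.

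Among the cytokines, Il6 encodes interleukin-6, which drives the acute-phase response and signals through STAT3 (chr5:30013114-30019981, + strand). It had 1.25, 0.374 and 0.676 CPM in BTZ+anti-PDL1 tumours, 0.650, 2.59 and 1.22 CPM in anti-PDL1 tumours, and 1.10, 3.02 and 2.93 CPM in isotype tumours. Isotype tumours 2 and 3 and anti-PDL1 tumour 2 were high, and BTZ+anti-PDL1 tumour 1 overlapped isotype tumour 1. The log2 fold change was −1.60 ± 0.618 in BTZ+anti-PDL1 against isotype (edgeR adjusted p = 0.549), the largest in size of the 10 members, and did not pass the test. It ranged from −2.15 to −1.28 when 1 tumour was left out. Against anti-PDL1 tumours, BTZ+anti-PDL1 tumours had −0.94 ± 0.622, and anti-PDL1 against isotype tumours had −0.66 ± 0.590. The first of these ran from −1.48 without BTZ+anti-PDL1 tumour 1 to −0.28 without anti-PDL1 tumour 2, and the other from −1.32 without anti-PDL1 tumour 2 to −0.31 without anti-PDL1 tumour 1. The SE of 0.618 compares with a median of 0.138 over all genes.

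Il1a and Il1b encode interleukin-1α and interleukin-1β, which act on the same receptor, and sit 54597 bases apart on the − strand of chromosome 2 (Il1a at 129299610-129309972, Il1b at 129364570-129371139). Il1b, the form that needs cleavage by caspase-1 before secretion, had 27.7, 25.2 and 47.9 CPM in BTZ+anti-PDL1 tumours, 42.4, 32.9 and 62.2 CPM in anti-PDL1 tumours, and 44.2, 26.0 and 73.2 CPM in isotype tumours. The third tumour was the highest in every group and the second the lowest, and all 3 groups overlapped. The log2 fold change of Il1b was −0.51 ± 0.431 in BTZ+anti-PDL1 against isotype (edgeR adjusted p = 0.756) and 0.059 without the 3 muscle-rich tumours. It was −0.45 ± 0.431 in BTZ+anti-PDL1 against anti-PDL1 and −0.059 ± 0.429 in anti-PDL1 against isotype. Il1a, which is active without cleavage, had 0.250, 0.695 and 1.51 CPM in BTZ+anti-PDL1 tumours, 0.400, 0.863 and 1.22 CPM in anti-PDL1 tumours, and 0.735, 0.594 and 1.67 CPM in isotype tumours. Its log2 fold changes were −0.29 ± 0.664, −0.022 ± 0.667 and −0.27 ± 0.660 against isotype with BTZ+anti-PDL1, against anti-PDL1 with BTZ+anti-PDL1, and against isotype with anti-PDL1. The antisense genes Il1bos and Gm14023 overlap Il1b and Il1a, and the strand setting of the counting was not given in the sources used here, so reads of the partners cannot be told apart.

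Il1b moved with neutrophil markers. The summed level of 8 such markers (S100a8, S100a9, Csf3r, Cxcr2 and others) was 49.1, 34.3 and 68.3 CPM in BTZ+anti-PDL1 tumours, 76.4, 74.5 and 102 CPM in anti-PDL1 tumours, and 71.5, 48.3 and 109 CPM in isotype tumours. Across the 9 tumours, the log2 values of Il1b and of this sum had a Pearson r of 0.92 (exact permutation p = 0.000551) and a Spearman rho of 0.85 (exact permutation p = 0.00607). Adjusted over the 100 relations of 10 members with 10 marker lists, these p were 0.0551 and 0.572, so the relation did not pass. The r was 0.89 without BTZ+anti-PDL1 tumour 2 and isotype tumour 3 and 0.95 on values centred on the group means. Of the 6 neutrophil markers with enough counts for a test, 6 were lower in BTZ+anti-PDL1 than in anti-PDL1 tumours (median log2 fold change −0.91) and 5 lower than in isotype tumours (median −0.74). Of all genes, 49.2% and 50.3% were below 0 in these 2 comparisons. Of the markers, 3 were lower at an unadjusted p under 0.05 in each comparison. At that p, 387 of all 14506 genes were lower against anti-PDL1, and 606 (4.18%) were lower against isotype. By edgeR 0 markers were called, while DESeq2 called S100a9 against isotype. Ly6g, the marker most specific to neutrophils, was at 0 in the 3 BTZ+anti-PDL1 tumours and in isotype tumour 2, and had counts in the other 5. A count of 0 allows up to 3 counts per library, so these zeros do not show that neutrophils were absent. The part of neutrophil content in the Il1b values was not tested.

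Tnf encodes tumour necrosis factor, made mostly by activated macrophages and T cells (chr17:35199381-35202007, − strand). It had 2.30, 6.46 and 3.49 CPM in BTZ+anti-PDL1 tumours, 4.50, 3.65 and 5.67 CPM in anti-PDL1 tumours, and 3.10, 1.58 and 3.50 CPM in isotype tumours. Every anti-PDL1 tumour was above every isotype tumour, by a narrow margin between anti-PDL1 tumour 2 and isotype tumour 3, while the BTZ+anti-PDL1 tumours overlapped both other groups. The log2 fold change was 0.76 ± 0.409 in anti-PDL1 against isotype (edgeR adjusted p = 0.770) and 0.58 ± 0.410 in BTZ+anti-PDL1 against isotype (edgeR adjusted p = 0.705). The value against isotype was 0.085 without BTZ+anti-PDL1 tumour 2, which was the highest. The value of BTZ+anti-PDL1 against anti-PDL1 was −0.18 ± 0.403. Of the 8 T cell markers, 8 had a log2 fold change above 0 in both comparisons with isotype (median 0.66 in anti-PDL1 and 0.74 in BTZ+anti-PDL1), and of the 10 macrophage and monocyte markers 9 did (median 0.35 and 0.33). Of all 14506 genes, 7111 and 7212 were above 0. Isotype tumour 2 had the lowest sum of both lists, while isotype tumour 3 (28.2 and 1576 CPM) lay within the range of the anti-PDL1 tumours. By edgeR 0 of these markers were called, and at an unadjusted p under 0.05 there were 1 T cell and 2 macrophage markers in anti-PDL1 and 2 and 1 in BTZ+anti-PDL1. At that p, 437 and 641 of all genes were higher. DESeq2 called the monocyte marker Ly6c2 in BTZ+anti-PDL1 against isotype. Over the 9 tumours, log2 Tnf had a Pearson r of 0.52 with the T cell sum (Spearman rho −0.033). That r was −0.26 without isotype tumour 2 and BTZ+anti-PDL1 tumour 1. With the macrophage and monocyte sum r was 0.67 (rho 0.42), and −0.089 without isotype tumours 1 and 2. Neither relation passed adjustment. The part of these cell types in the Tnf values was not tested.

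**Figure D3:**
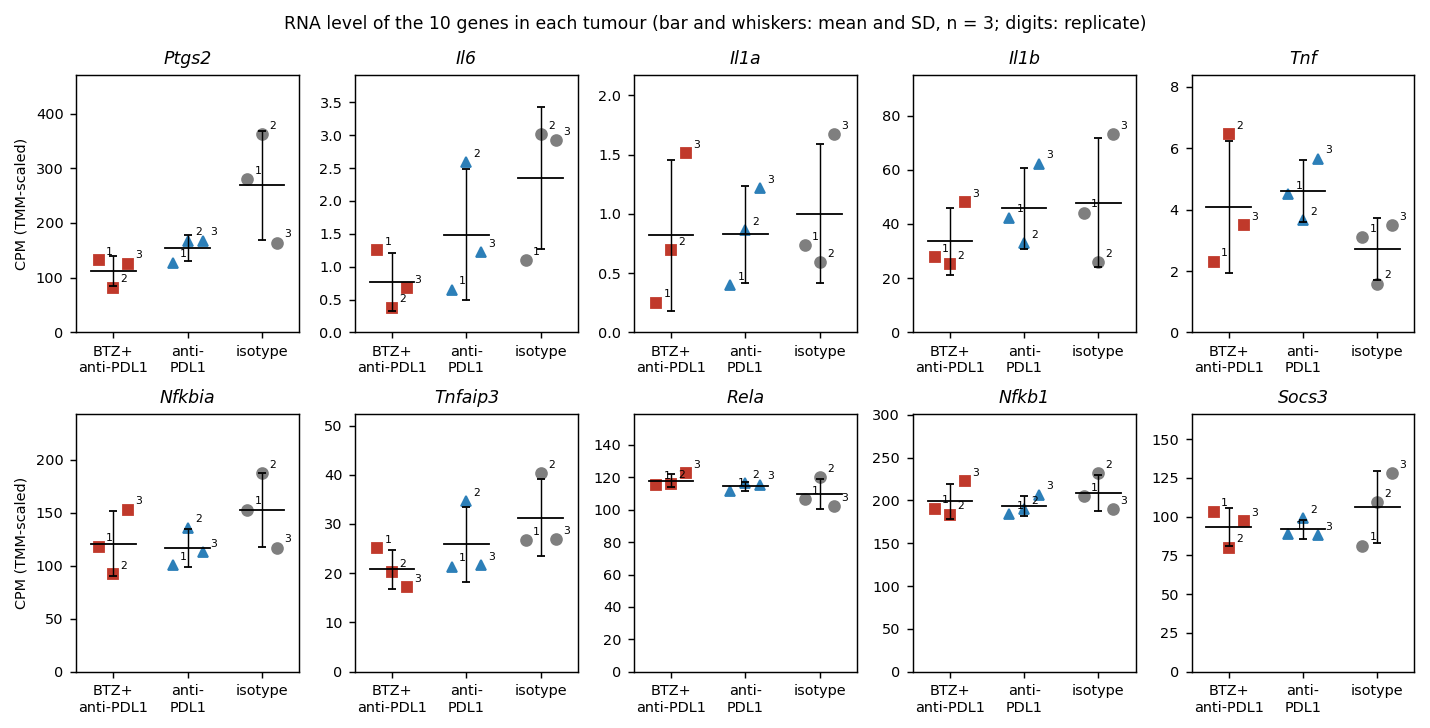
CPM of each of the 10 genes in the 9 tumours (1 panel per gene, each y axis starting at 0), with the digit of the replicate beside each symbol and the mean ± SD of 3 tumours per group. All BTZ+anti-PDL1 tumours lie below all isotype tumours in the panels of Ptgs2 and Tnfaip3, and the BTZ+anti-PDL1 tumours of Tnf spread from 2.30 to 6.46 CPM.

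Of the pathway's brakes, Tnfaip3 encodes A20, which removes activating ubiquitin chains from signalling adaptors (chr10:19000910-19015657, − strand). It had 25.1, 20.2 and 17.1 CPM in BTZ+anti-PDL1 tumours, 21.3, 34.6 and 21.7 CPM in anti-PDL1 tumours, and 26.7, 40.3 and 26.9 CPM in isotype tumours. The BTZ+anti-PDL1 tumours were all below the isotype tumours, and the anti-PDL1 tumours overlapped both. The log2 fold change in BTZ+anti-PDL1 against isotype was −0.59 ± 0.244 (edgeR adjusted p = 0.565) and did not pass the test. It was −0.36 without isotype tumour 2. It was −0.31 ± 0.244 in BTZ+anti-PDL1 against anti-PDL1 and −0.28 ± 0.243 in anti-PDL1 against isotype, and was −0.046 in the first without anti-PDL1 tumour 2 and −0.046 in the other without isotype tumour 2.

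Nfkbia (chr12:55489411-55492647, − strand), whose product the proteasome degrades when the pathway is switched on, had 118, 91.8 and 153 CPM in BTZ+anti-PDL1 tumours, 100.5, 136 and 113 CPM in anti-PDL1 tumours, and 153, 187 and 117 CPM in isotype tumours. All groups overlapped. The log2 fold changes were −0.33 ± 0.224 in BTZ+anti-PDL1 against isotype (edgeR adjusted p = 0.694), 0.054 ± 0.225 in BTZ+anti-PDL1 against anti-PDL1 (adjusted p = 0.984) and −0.39 ± 0.225 in anti-PDL1 against isotype (adjusted p = 0.790). RNA levels do not measure the IκBα protein, which is where proteasome inhibition acts.

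The subunit genes were the steadiest. Rela (chr19:5637483-5648130, + strand) had 115, 116 and 122 CPM in BTZ+anti-PDL1 tumours, 111, 116 and 116 CPM in anti-PDL1 tumours, and 107, 120.1 and 102 CPM in isotype tumours. Its log2 fold change was 0.11 ± 0.0712 in BTZ+anti-PDL1 against isotype (edgeR adjusted p = 0.690). Nfkb1 (chr3:135584655-135691547, − strand), which also overlaps the predicted gene Gm43430, had 191, 183 and 222 CPM in BTZ+anti-PDL1 tumours, 184, 189 and 207 CPM in anti-PDL1 tumours, and 205, 232 and 189 CPM in isotype tumours. Its log2 fold change was −0.07 ± 0.0986 in BTZ+anti-PDL1 against isotype (edgeR adjusted p = 0.854). In the other comparisons both genes lay between −0.11 and 0.063. Their SEs were below the median SE of all genes, and no difference beyond the spread between tumours was detected.

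Socs3 (chr11:117966079-117970047, − strand), the STAT3-induced suppressor of cytokine signalling, had 103, 80.0 and 97.1 CPM in BTZ+anti-PDL1 tumours, 88.7, 99.1 and 88.1 CPM in anti-PDL1 tumours, and 81.4, 109 and 128 CPM in isotype tumours. The groups overlapped, with the widest spread among the isotype tumours. The log2 fold changes were −0.18 ± 0.158 in BTZ+anti-PDL1 against isotype (edgeR adjusted p = 0.754), 0.023 ± 0.158 in BTZ+anti-PDL1 against anti-PDL1 (adjusted p = 0.992) and −0.21 ± 0.158 in anti-PDL1 against isotype (adjusted p = 0.832).

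Across the 9 tumours, members were compared in 45 pairs by exact permutation tests on log2 CPM. The permutations shuffled all 9 tumours across the groups, so differences between groups enter r and p. No pair passed Benjamini-Hochberg adjustment by Pearson's r or Spearman's rho, 9 pairs had an unadjusted Pearson p under 0.05, and 29 were positive, with a median r of 0.18. The pair of Nfkbia and Nfkb1 had the highest r (0.85, exact permutation p = 0.00404, adjusted p = 0.102, and rho 0.78, p = 0.0172, adjusted p = 0.155), which was 0.72 without isotype tumours 1 and 2 and 0.83 on values centred on the group means. Il6 and Tnfaip3 had r = 0.83 (exact permutation p = 0.0058, adjusted p = 0.102) and rho = 0.88 (p = 0.00308, adjusted p = 0.124), with r = 0.81 without BTZ+anti-PDL1 tumour 2 and isotype tumour 2 and 0.70 on values centred on the group means. Ptgs2 and Nfkbia had r = 0.82 (exact permutation p = 0.00683, adjusted p = 0.102) and rho = 0.63 (p = 0.0760, adjusted p = 0.374), and r was 0.46 without isotype tumour 2 and BTZ+anti-PDL1 tumour 2 but 0.87 on values centred on the group means. Tnf went the other way from Nfkbia (r = −0.78, exact permutation p = 0.0127, adjusted p = 0.143, and rho −0.85, p = 0.00607, adjusted p = 0.124), and its r was −0.38 without the same 2 tumours and −0.70 on values centred on the group means. Il1a and Il1b had r = 0.69 (exact permutation p = 0.0423, adjusted p = 0.211) and rho = 0.75 (p = 0.0255, adjusted p = 0.191). Their r was 0.48 without BTZ+anti-PDL1 tumour 1 and isotype tumour 3, and 0.68 on values centred on the group means.

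**Figure D4:**
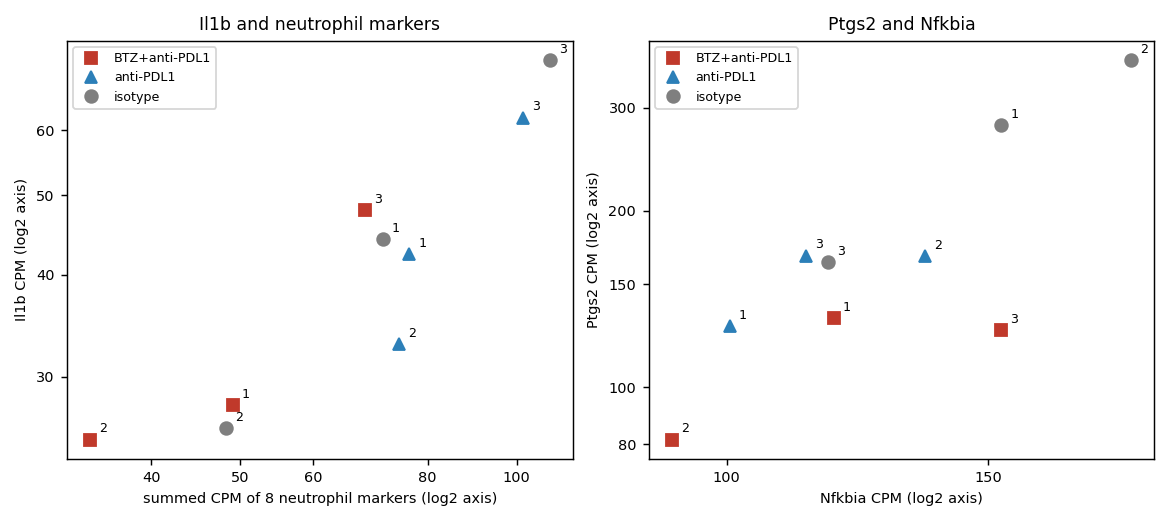
Left, Il1b against the summed level of 8 neutrophil markers, and right, Ptgs2 against Nfkbia, both in CPM on log2 axes with 1 symbol per tumour and the replicate digit beside it. Il1b and the neutrophil sum lie along a line over all 3 groups (r = 0.92), while Ptgs2 and Nfkbia (r = 0.82) have isotype tumour 2 at the top and BTZ+anti-PDL1 tumour 2 at the bottom.

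The wider pathway was covered by 98 other genes in 9 groups, of which 92 had enough counts for a test. No gene of the list was called by edgeR, DESeq2 or limma in any of the 3 comparisons. For BTZ+anti-PDL1 against isotype 39 were lower and 53 higher, with a median log2 fold change of 0.041. Those with an unadjusted p under 0.05 numbered 6 lower and 8 higher, against 4.18% and 4.42% of all genes. Between BTZ+anti-PDL1 and anti-PDL1 tumours 43 were lower and 49 higher (10 of 92 at an unadjusted p under 0.05, against 5.82% of all genes), and in anti-PDL1 against isotype tumours 48 were lower and 44 higher (6 of 92 at that p, against 6.35% of all genes). The genes named next had the smallest p of their group, so they are not typical of it.

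Among other NF-kappaB target genes, Ier3, an immediate early response gene, followed the pattern of Ptgs2. It had 78.3, 49.4 and 107 CPM in BTZ+anti-PDL1 tumours, 78.3, 144 and 122 CPM in anti-PDL1 tumours, and 199.8, 269 and 116 CPM in isotype tumours. The BTZ+anti-PDL1 tumours were all below the isotype tumours (log2 fold change −1.31 ± 0.406, edgeR adjusted p = 0.534). Sod2, the mitochondrial superoxide dismutase, had a log2 fold change of −0.33 ± 0.0961 in the same comparison (adjusted p = 0.492). The adhesion molecule gene Icam1 had 22.4, 25.7 and 23.0 CPM in anti-PDL1 tumours and 14.1, 7.18 and 21.4 CPM in isotype tumours (log2 fold change 0.74 ± 0.317, edgeR adjusted p = 0.763). Of 18 such target genes tested, 7 were lower and 11 higher in BTZ+anti-PDL1 against isotype tumours.

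In the IL-6 family and its JAK-STAT3 relay, the cytokine gene Osm had a log2 fold change of −0.93 ± 0.302 and the kinase gene Tyk2 of 0.36 ± 0.0883 in BTZ+anti-PDL1 against isotype tumours (edgeR adjusted p = 0.520 and 0.367). Osm had 7.01, 2.94 and 6.04 CPM in BTZ+anti-PDL1 tumours and 9.34, 11.8 and 9.41 CPM in isotype tumours. Lif, which encodes another cytokine of the IL-6 family, had 30.9, 31.3 and 13.7 CPM in anti-PDL1 tumours and 50.0, 83.8 and 41.3 CPM in isotype tumours (log2 fold change −1.21 ± 0.395, edgeR adjusted p = 0.763). Stat3 had a log2 fold change of −0.21 ± 0.0646 in BTZ+anti-PDL1 against anti-PDL1 tumours (edgeR adjusted p = 0.739). The groups of these 4 genes did not overlap in the comparisons named, which held in either direction for 13.0% of all genes in BTZ+anti-PDL1 against isotype, 14.3% in BTZ+anti-PDL1 against anti-PDL1 and 12.7% in anti-PDL1 against isotype. These 4 genes were named for their small p, which favours groups without overlap, so the shares are no test of them.

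In the prostaglandin pathway beside Ptgs2, the prostaglandin E2 receptor gene Ptger4 had 7.10, 4.92 and 5.01 CPM in anti-PDL1 tumours and 2.36, 2.13 and 3.92 CPM in isotype tumours, with a log2 fold change of 1.02 ± 0.295 (edgeR adjusted p = 0.763). Against isotype, BTZ+anti-PDL1 gave Ptger4 a value of 0.75 ± 0.295 and the thromboxane synthase gene Tbxas1 one of 0.50 ± 0.195 (log2 fold change, edgeR adjusted p = 0.549 for both). The mean of Ptger4 was 4.71 CPM in BTZ+anti-PDL1 and 5.68 CPM in anti-PDL1 tumours. Of 10 prostaglandin enzyme and receptor genes tested, 4 were lower and 6 higher in BTZ+anti-PDL1 against isotype tumours, from −1.89 to 0.78. At an unadjusted p under 0.05 by edgeR, 1 was lower and 2 were higher (4.18% and 4.42% of all genes). Ptgds, Hpgd and Ptger3 were not tested for lack of counts.

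Genes that act on the cytokine messages and proteins were also covered in BTZ+anti-PDL1 against isotype tumours, and none was called by edgeR, DESeq2 or limma. All 8 cytokine mRNA decay factors tested had a log2 fold change below 0 (median −0.15, with 0 at an unadjusted p under 0.05), among them Zc3h12a, the endonuclease regnase-1 (−0.27 ± 0.129, edgeR adjusted p = 0.604), and Hnrnpd (−0.25 ± 0.123, adjusted p = 0.617). All 7 genes of cytokine maturation were above 0 (median 0.24, with 1 at that p), among them the inflammatory caspase genes Casp1 (0.41 ± 0.204, edgeR adjusted p = 0.608) and Casp4 (0.34 ± 0.147, adjusted p = 0.569). Over all genes tested 50.3% were below 0. Of the 8 other NF-kappaB subunit and inhibitor genes, 3 were lower and 5 higher. Nfkbiz, a nuclear IκB protein needed for Il6 induction, had a log2 fold change of −0.55 ± 0.198 (edgeR adjusted p = 0.543), and Nfkb2, which encodes the p100 precursor, of 0.16 ± 0.0691 (adjusted p = 0.579).

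For 4 members, the genes with the most similar pattern over the 9 tumours were sought among 12144 genes by Pearson's r of log2 CPM, as a description. Ptgs2 was nearest to Ddit4, Rgs16 and Ier3 (r = 0.97 each). Ddit4 had 51.6, 44.7 and 59.1 CPM in BTZ+anti-PDL1 tumours, 56.1, 72.1 and 61.9 CPM in anti-PDL1 tumours, and 89.2, 102 and 61.4 CPM in isotype tumours. Il1b was nearest to Il1f9 (0.91), Mxd1 (0.90) and Ifitm1 (0.89). Tnf was nearest to Vcpip1 (0.98), Itgam (0.97) and Rgs14 (0.96), and Itgam, the gene of the myeloid integrin CD11b, had 114, 202 and 165 CPM in BTZ+anti-PDL1 tumours, 166, 145 and 184 CPM in anti-PDL1 tumours, and 131, 85.1 and 130.4 CPM in isotype tumours. Nfkbia was nearest to Actb (0.96), Gnb2 (0.96) and Fst (0.95). The cytoskeletal actin gene Actb, often used as a constant reference, ranged from 1493 to 4472 CPM between tumours.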

How the data were processed

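RNA of 9 tumours was measured by sequencing. The counts are as deposited, whole numbers per gene and tumour in columns that the file headers name count. The headers do not speak of normalisation. The FPKM columns are the authors' own, and for 12343 genes FPKM times the library total was proportional to the count (largest relative deviation 2.82e-05). HISAT2 2.0.4, StringTie 1.3.3b and the build mm10 stand, with no role given, in the submitters' processing notes. The counting tool and its strand setting are not given in the sources used here. Of the genes, 13060 had no count in any tumour. Groups and replicates came from the labels, which give separate tumours.

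Genes were tested in R 4.3.3 with edgeR 4.0.16 (quasi-likelihood F test, robust, TMM, filterByExpr with a minimum count of 10, 3 group means over 9 tumours, 6 residual degrees of freedom, two-sided, Benjamini-Hochberg over 14506 genes). The SE was derived from the fold change and the F statistic. Alternatives used DESeq2 1.42.0, limma 3.58.1 on log2(FPKM + 1) and log2(FPKM + 0.1) for genes with an FPKM of at least 1 in 3 tumours, other scalings, filters and subsets of tumours. A symbol with more than 1 ID was read from the ID with the most counts. The test was tested on simulated data. The members and gene lists were chosen with earlier results of these data known. The marker correlations, sequence searches, lung epithelial genes and DESeq2 fits without 1 tumour were chosen after the values were seen. From each group of the wider list the 2 genes with the smallest p in a comparison could be named, and for likeness the 3 genes with the highest r, with predicted loci left out and a mean of at least 1 CPM. Correlations used exact permutation tests over all 362880 orders, in Python 3.11.15.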

Additional observations from a re-analysis of the deposited data

How the results depend on the processing

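Of 498 member fold changes recomputed under other settings, 466 kept their direction and their side of the threshold, 1 passed it (Ptgs2 by DESeq2 in BTZ+anti-PDL1 against isotype, −1.26, the 1 member called there), and 31 changed sign, none of them of Ptgs2, Il6, Tnfaip3 or Rela. The FPKM filter removed Il6 and Il1a, so those fits have no value for them. The cause of the sign changes was not tested. In anti-PDL1 against isotype, Il1b was 0.0046 with the replicate block, 0.44 without the 3 muscle-rich tumours and 0.019 and 0.025 on the FPKM scales, and Il1a was 0.65 without the muscle-rich tumours. Leaving out 1 tumour gave −0.35 to 0.39 for Il1b and −0.66 to 0.32 for Il1a. For BTZ+anti-PDL1 against anti-PDL1, leaving out the muscle-rich tumours gave 0.081 for Il1a, 0.091 for Tnf, −0.025 for Nfkbia and −0.081 for Socs3. Leaving out 1 tumour gave −0.81 to 0.41 for Il1a, −0.67 to 0.11 for Tnf, −0.15 to 0.22 for Nfkbia, −0.055 to 0.12 for Socs3 and −0.047 to 0.094 for Nfkb1. For BTZ+anti-PDL1 against isotype, leaving out the muscle-rich tumours gave 0.73 for Il1a and 0.059 for Il1b, and leaving out 1 tumour gave −1.07 to 0.30 for Il1a and −0.15 to 0.016 for Nfkb1. The DESeq2 value of Ptgs2 ran from −1.52 to −0.98 when 1 tumour was left out.

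Counts of genes called over the whole table were 1 in BTZ+anti-PDL1 against isotype, 2 in BTZ+anti-PDL1 against anti-PDL1 and 2 in anti-PDL1 against isotype, in that order below. DESeq2 gave 111, 60 and 15, and leaving out the muscle-rich tumours 0, 0 and 0 by edgeR (1416, 735 and 1092 genes at an unadjusted p under 0.05). Without the low-count filter there were 6 in the first and 4 in the second, in fits of only the 6 tumours compared 0 and 12, and by limma 3 in the first on both FPKM scales. Leaving out 1 tumour gave 0 to 20 (20 without isotype replicate 3), 1 to 7 (7 without isotype replicate 1) and 1 to 4 (4 without isotype replicate 2). With the replicate number as a block the counts were 0, 1 and 1, and it called no member. Deviations of same-numbered tumours from their group means had correlations of −0.43 to 0.39. The tumour of the same number was the most alike in 5 of 18 comparisons with another group. No general pairing by number was seen, but 3 tumours per group are too few to exclude a shared batch or day.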
